A study of Homo sapiens with 6 samples.

Results

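The genes of cholesterol and fatty acid synthesis were examined in SUM-159 cells, an established line of triple-negative breast cancer, after stable transfection with an SH3GL2 insert in a pcDNA vector (3 arrays) or with the empty vector (3 arrays). SH3GL2 (endophilin A1) is an endocytic adaptor protein that the study treats as a metastasis suppressor, and the question asked of the arrays was which genes change when it is overexpressed. The labels do not say whether each line was a clone or a pool, nor whether the triplicates were separate cultures, so p-values measure the spread between these arrays, which may be technical. Members were all probe sets of the Affymetrix U133A 2.0 array whose only annotated symbol was 1 of 35 listed genes. This rule found 59 probe sets of 30 genes, among 22215 probe sets of 11963 genes tested. FDFT1, STARD4 and ACSL3 were not analysed here, and CYP51A1 and FADS1 had only probe sets shared with another symbol, which stand outside the counts.

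Cholesterol is built from acetyl-CoA through mevalonate, isoprenoid diphosphates, squalene and lanosterol, and fatty acids are built from malonyl-CoA by fatty acid synthase and then desaturated and elongated. Both routes are driven by the SREBP transcription factors, which SCAP escorts out of the endoplasmic reticulum when sterols are low and which the INSIG proteins hold back when sterols are high. INSIG1 is itself an SREBP target, and the LXR nuclear receptors, which respond to oxysterols, switch on sterol export instead.

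The sequences upstream of 4 members are shown because INSIG1 and DHCR7 were the members that passed the test, HMGCS1 varied most among arrays, and SREBF2 holds the sterol regulatory element itself. Each is the 250 bases before the first listed gene start in RefSeq (GRCh38.p14), and capitals mark the sterol regulatory element TCACNCCAC, the CCAAT box or the E-box CACGTG on either strand, which did not overlap each other here. INSIG1 lies on the plus strand at chr7:155297628-155297877, DHCR7 on the minus strand at chr11:71448394-71448643, HMGCS1 on the minus strand at chr5:43313413-43313662 and SREBF2 on the plus strand at chr22:41832855-41833104.
INSIG1: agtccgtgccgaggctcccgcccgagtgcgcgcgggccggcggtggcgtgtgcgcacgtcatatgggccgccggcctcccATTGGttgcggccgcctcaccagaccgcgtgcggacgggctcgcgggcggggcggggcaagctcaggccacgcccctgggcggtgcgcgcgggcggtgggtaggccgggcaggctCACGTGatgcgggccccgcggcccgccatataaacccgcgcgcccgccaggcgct
DHCR7: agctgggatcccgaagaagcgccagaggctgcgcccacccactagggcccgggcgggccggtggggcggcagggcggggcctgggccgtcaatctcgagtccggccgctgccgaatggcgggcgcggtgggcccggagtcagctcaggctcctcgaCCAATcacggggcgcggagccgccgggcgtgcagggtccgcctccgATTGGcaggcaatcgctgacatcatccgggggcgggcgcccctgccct
HMGCS1: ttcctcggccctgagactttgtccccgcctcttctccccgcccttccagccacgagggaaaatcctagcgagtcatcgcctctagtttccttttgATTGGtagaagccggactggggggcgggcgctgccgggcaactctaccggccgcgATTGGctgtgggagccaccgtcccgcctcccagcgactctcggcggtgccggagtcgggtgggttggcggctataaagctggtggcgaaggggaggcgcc
SREBF2: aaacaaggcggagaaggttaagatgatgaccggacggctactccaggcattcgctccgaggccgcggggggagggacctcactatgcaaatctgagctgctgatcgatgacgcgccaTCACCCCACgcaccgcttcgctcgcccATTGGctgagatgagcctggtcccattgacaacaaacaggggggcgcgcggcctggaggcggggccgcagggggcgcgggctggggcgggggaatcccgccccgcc
The SREBF2 window held the sterol regulatory element on the strand of the gene, and INSIG1 held an E-box at 55 to 50 bases. All 4 windows held at least 1 CCAAT box. A window was listed for 31 of the 35 genes, 45 windows in all. The CCAAT box was in 25 of these 45 (55.6%) and in 32.0% of all 34943 windows, and the sterol regulatory element was in 2 (4.44%) and in 0.881% of all. The E-box was in 6 of the 45 (13.3%) and in 6.32% of all. These are descriptions of letters in a short window, and an element outside it, or one inside it with other letters, would not be seen.

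Signals are the authors' log2 values. To judge which are high enough to read, 62 genes typical of other organs (105 probe sets) served as a reference, and its 95th percentile was 6.99. Both group means of 49 of the 59 member probe sets lay above it. Across probe sets, arrays of the same group had Pearson correlations of 0.9971 to 0.9982, and arrays of different groups 0.9947 to 0.9965. The only SH3GL2 probe set averaged 3.26 ± 0.09 in SH3GL2 cells and 3.22 ± 0.04 in empty vector cells (SD, n = 3 each), below the reference, so it could not check the labels. The mesenchymal marker VIM averaged 14.58 in SH3GL2 cells and 14.68 in empty vector cells. Of 8 luminal markers ERBB2 and GATA3 reached that percentile in both groups and the other 6, ESR1 and PGR among them, in neither, and their summed level was 10.08 to 10.38 in SH3GL2 arrays and 10.32 to 10.42 in empty vector arrays. None of 4 leukocyte and 4 endothelial markers measured reached it. Of 6 mesenchymal markers AXL, CAV1, FN1 and SPARC fell on their brightest probe sets (limma), and the log2 of the summed signal of all 6 was 15.59 to 15.60 in SH3GL2 arrays and 15.79 to 15.82 in empty vector arrays. Of 6 adipocyte markers only CIDEC reached the percentile, in empty vector cells, and LPL fell at means under it, with a summed level of 8.06 to 8.20 in SH3GL2 arrays and 8.23 to 8.37 in empty vector arrays for the list. The part of these shifts in the results was not tested. In such bulk RNA fewer expressing cells and less RNA per cell cannot be told apart.

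Most members stayed close to their empty vector level. Of the 59 probe sets, 2 were higher in SH3GL2 cells (3.39%), both of DHCR7, and 1 was lower (1.69%), of INSIG1, by limma with Benjamini-Hochberg adjustment over all 22215 probe sets and a threshold of 0.05. Over all probe sets 1.99% were higher and 2.18% were lower, 4.17% in all, against 3 of 59 members (5.08%), so the members' shares were near the background. The groups did not overlap at 6 higher and 5 lower member probe sets, against 10.5% and 8.97% of all probe sets. With 1 probe set per gene, the brightest, the median log2 fold change was 0.01 over the 30 genes and 0.02 over all 11963, and the range was -0.59 to 0.34. The 95% interval of the fold change lay within 0.3 log2 units of 0, a fold of 1.23, at 37 member probe sets and within 0.5 at 50, unadjusted for the number of probe sets.

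**Figure D1:**
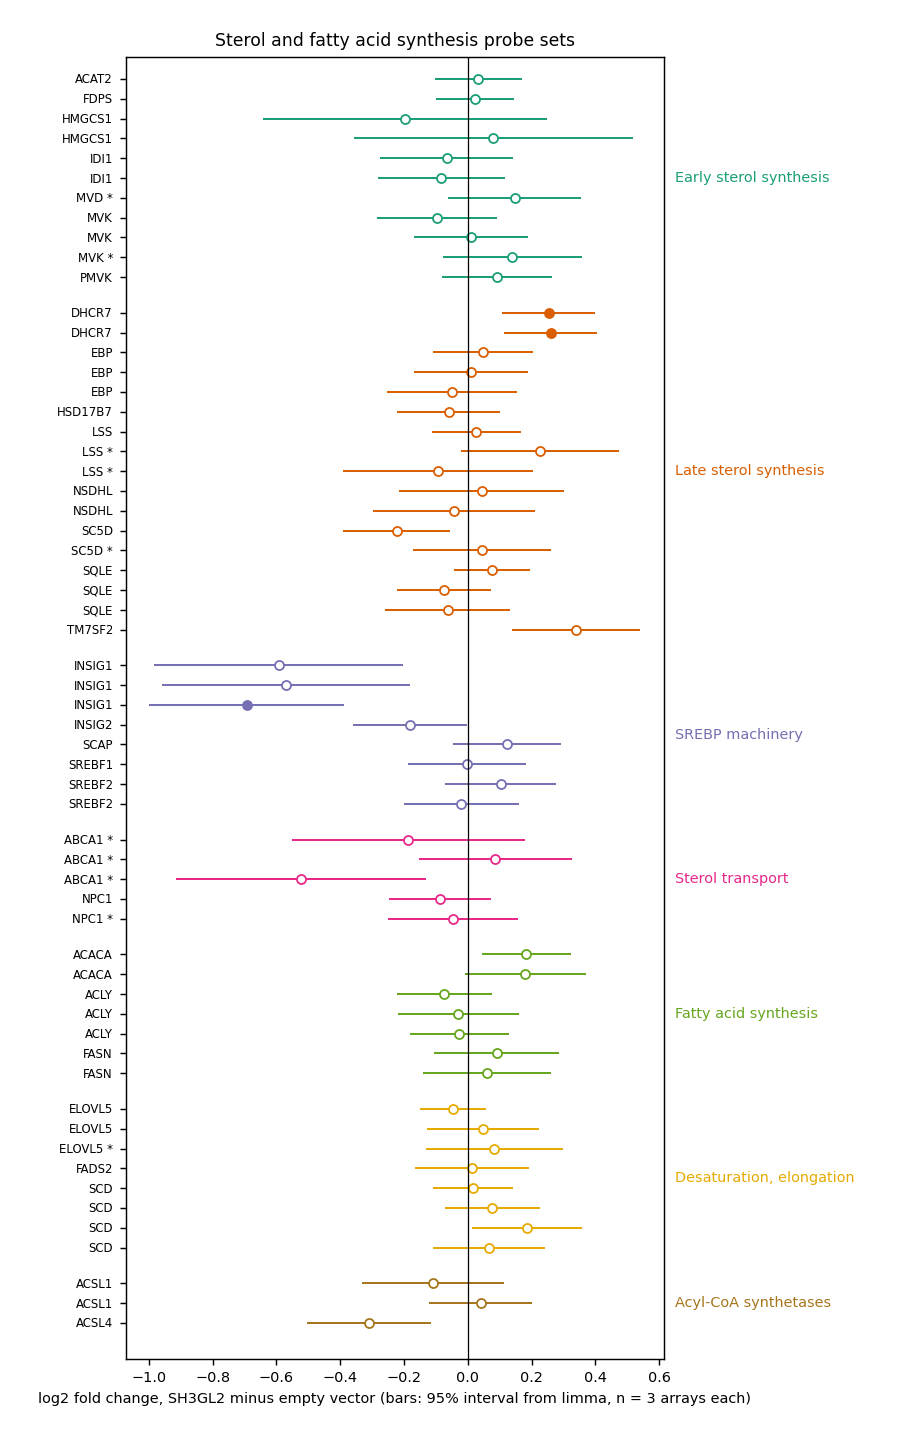
Log2 fold change (x axis, SH3GL2 minus empty vector, with the 95% interval from limma) of the 59 member probe sets, 1 row each with its gene, coloured by role. Filled points passed an adjusted p under 0.05, and an asterisk marks probe sets without both means above the 95th percentile of the reference. The 3 INSIG1 rows reach from -0.57 to -0.69, while 49 of the 59 points lie within 0.2 of 0.

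INSIG1, the sterol-sensing retention protein of the SREBP-SCAP complex, had the lowest fold changes of all members. On its first probe set the SH3GL2 arrays read 7.99, 8.37 and 7.89, against 8.54, 9.08 and 8.71 in empty vector arrays. Every SH3GL2 array was below every empty vector array, and SH3GL2 cells kept 61.8% of the empty vector signal. In limma the log2 fold change was -0.69 with a standard error of 0.14 (adjusted p = 0.0128). The brightest probe set read 10.33, 10.91 and 10.19 in SH3GL2 arrays, against 10.72, 11.44 and 11.05 in empty vector arrays. Here SH3GL2 array 2 lay above empty vector array 1, so the groups overlapped, and the fold change of -0.59 (standard error 0.18) missed the threshold (adjusted p = 0.0936 from limma). The third probe set had 9.58, 10.16 and 9.44 in SH3GL2 arrays, against 10.06, 10.70 and 10.13 in empty vector arrays, a fold change of -0.57 (adjusted p = 0.108). The 3 probe sets measure 1 transcript and are not independent. The call of the first was lost without SH3GL2 replicate 1 (adjusted p = 0.0618), SH3GL2 replicate 3 (0.0769) or empty vector replicate 2 (0.0552), and in the fit without an intensity trend (0.0504). It was also lost with signals floored at the reference median (adjusted p = 0.232 from limma) and in an analysis of variance (0.325). Without SH3GL2 replicate 2 all 3 passed, with fold changes of -0.79 to -0.84, and without empty vector replicate 1 the brightest passed too (-0.77, adjusted p = 0.0411). All 3 also passed limma with a block for the replicate number (adjusted p = 2.96e-04 to 9.64e-04). The labels do not say that a number marks a pair.

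The other SREBP machinery genes did not pass. SREBF1, which encodes the factor that favours fatty acid genes, read 8.78, 9.04 and 9.04 in SH3GL2 arrays, against 9.04, 8.93 and 8.90 in empty vector arrays. SREBF2, which encodes the factor that favours sterol genes, read 8.08, 8.13 and 8.11 in SH3GL2 arrays, against 7.98, 7.92 and 8.11 in empty vector arrays, on the brighter of 2 probe sets. Their fold changes were 0.00 (95% interval -0.19 to 0.18) and 0.10 (-0.07 to 0.27), so a change of either mRNA as large as that of INSIG1 lay outside these intervals. SCAP, the escort, read 9.20, 9.41 and 9.37 in SH3GL2 arrays, against 9.29, 9.12 and 9.20 in empty vector arrays, a fold change of 0.12 (adjusted p = 0.503). INSIG2, the homolog of INSIG1 that is not a classic SREBP target, read 8.55, 8.39 and 8.55 in SH3GL2 arrays, against 8.56, 8.71 and 8.76 in empty vector arrays. The INSIG2 groups were apart by a narrow margin, and the fold change of -0.18 did not pass (adjusted p = 0.30).

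Among the enzymes of late sterol synthesis, DHCR7, the reductase that makes cholesterol from 7-dehydrocholesterol, was higher in SH3GL2 cells on both of its probe sets. The first read 9.74, 9.90 and 9.77 in SH3GL2 arrays, against 9.55, 9.51 and 9.57 in empty vector arrays. The second, brighter one read 10.27, 10.34 and 10.37 in SH3GL2 arrays, against 10.09, 9.97 and 10.16 in empty vector arrays. All SH3GL2 values exceeded all empty vector values on both, and the increase was small, at 1.20-fold and 1.19-fold. The log2 fold changes were 0.26 (standard error 0.07, adjusted p = 0.0447) and 0.25 (standard error 0.07, adjusted p = 0.04997, just inside the threshold) in limma. Neither call was kept when any 1 array was left out (adjusted p = 0.0505 to 0.234) and after median centring of the arrays (0.0759 and 0.0883).

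TM7SF2, a sterol C14 reductase, had the highest fold change of the members. It read 7.42, 7.36 and 7.34 in SH3GL2 arrays, against 7.18, 7.00 and 6.92 in empty vector arrays, with no overlap. The log2 fold change of 0.34 (95% interval 0.14 to 0.54) missed the threshold (adjusted p = 0.0577 from limma). SC5D, the desaturase that supplies the substrate of DHCR7, went the other way on its bright probe set, with 9.90, 9.95 and 9.84 in SH3GL2 arrays, against 9.96, 10.24 and 10.16 in empty vector arrays, and did not pass (-0.22, adjusted p = 0.143). Its other probe set lay under the reference. SQLE, the squalene epoxidase that limits the late pathway, read 11.64, 11.67 and 11.60 in SH3GL2 arrays, against 11.49, 11.64 and 11.55 in empty vector arrays on its brightest probe set. Its 3 probe sets had fold changes of -0.07 to 0.08. The cyclase LSS, the isomerase EBP, the dehydrogenase NSDHL and the ketoreductase HSD17B7 had fold changes of -0.06 to 0.05 on their brightest probe sets, and none passed. Of the 17 late probe sets 2 were higher, none was lower and 15 did not pass.

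The enzymes from acetoacetyl-CoA to farnesyl diphosphate did not differ detectably. None of 11 probe sets of 7 genes passed limma, with adjusted p of 0.524 to 0.975. FDPS, the farnesyl diphosphate synthase, read 11.59, 11.74 and 11.66 in SH3GL2 arrays, against 11.58, 11.66 and 11.68 in empty vector arrays. ACAT2, the cytosolic thiolase of the first step, read 10.42, 10.56 and 10.47 in SH3GL2 arrays, against 10.42, 10.41 and 10.52 in empty vector arrays. In both genes the groups overlapped, at fold changes of 0.02 and 0.03. The kinases MVK and PMVK and the decarboxylase MVD of the mevalonate route had -0.10, 0.09 and 0.15 on their brightest probe sets, the last at means under the 95th percentile of the reference. HMGCS1, which makes HMG-CoA, had the largest spread among arrays of all members. Its brighter probe set read 9.70, 10.00 and 9.25 in SH3GL2 arrays, against 9.41, 10.34 and 9.79 in empty vector arrays, and the 95% interval of its fold change, -0.64 to 0.25, was the widest of all members.

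**Figure D2:**
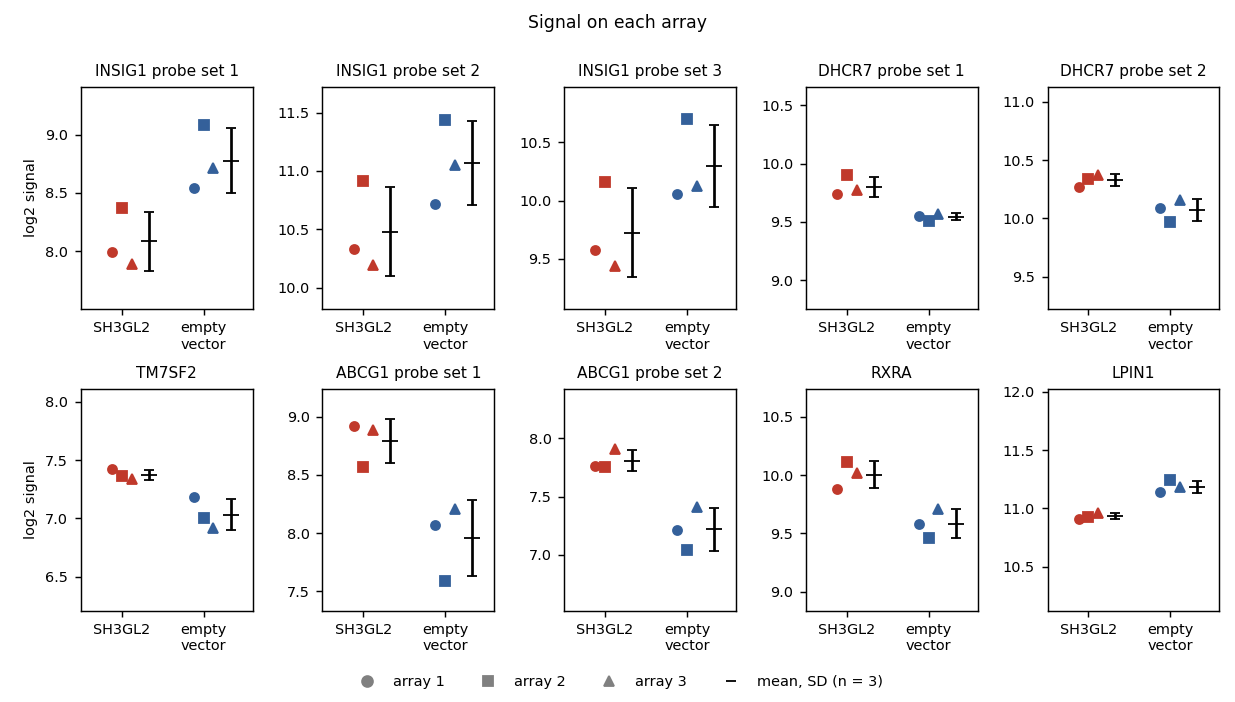
Log2 signal (y axis, each panel spanning the same range) on each array of 10 probe sets in SH3GL2 cells (left, red) and empty vector cells (right, blue), with mean and SD (n = 3). The symbols give the array number. The INSIG1 signals are lower in SH3GL2 cells with array 2 highest in each group, and the DHCR7 and ABCG1 signals are higher with no overlap.

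The array numbered 2 gave the highest signal of its group for many members in both groups at once. This held for 20 of 59 member probe sets (33.9%) and for 11.6% of all probe sets tested. Where both means exceeded the 95th percentile of the reference, it held for 19 of 49 member probe sets (38.8%) and for 13.0% of all such probe sets. HMGCS1, INSIG1, IDI1 and NSDHL did so on every probe set they have, and FADS2 on its only probe set. Probe sets of the same gene are not independent. Array 1 was highest in both groups for 1.69% of member probe sets and 9.8% of all, and array 3 for 11.9% and 12.4%. Where both means exceeded the 95th percentile, the shares were 2.04% and 3.73% for array 1 and 10.2% and 17.8% for array 3. On the brighter HMGCS1 probe set array 2 lay 0.53 above the mean of the other arrays in SH3GL2 cells and 0.74 above it in empty vector cells, and on the brightest INSIG1 probe set 0.65 and 0.56 above it. IDI1, the isopentenyl diphosphate isomerase, read 11.39, 11.59 and 11.26 in SH3GL2 arrays, against 11.33, 11.69 and 11.42 in empty vector arrays on its brighter probe set. Array 2 was thus the highest in both groups, while the IDI1 fold changes between groups, -0.07 and -0.08, did not pass. The labels do not say that a number marks a shared batch or culture day. The median SD within a group was 0.101 over members and 0.105 over all probe sets tested, which were not matched to the members for signal level. It was 0.42 for HMGCS1 and 0.37 for INSIG1 on their brightest probe sets.

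**Figure D3:**
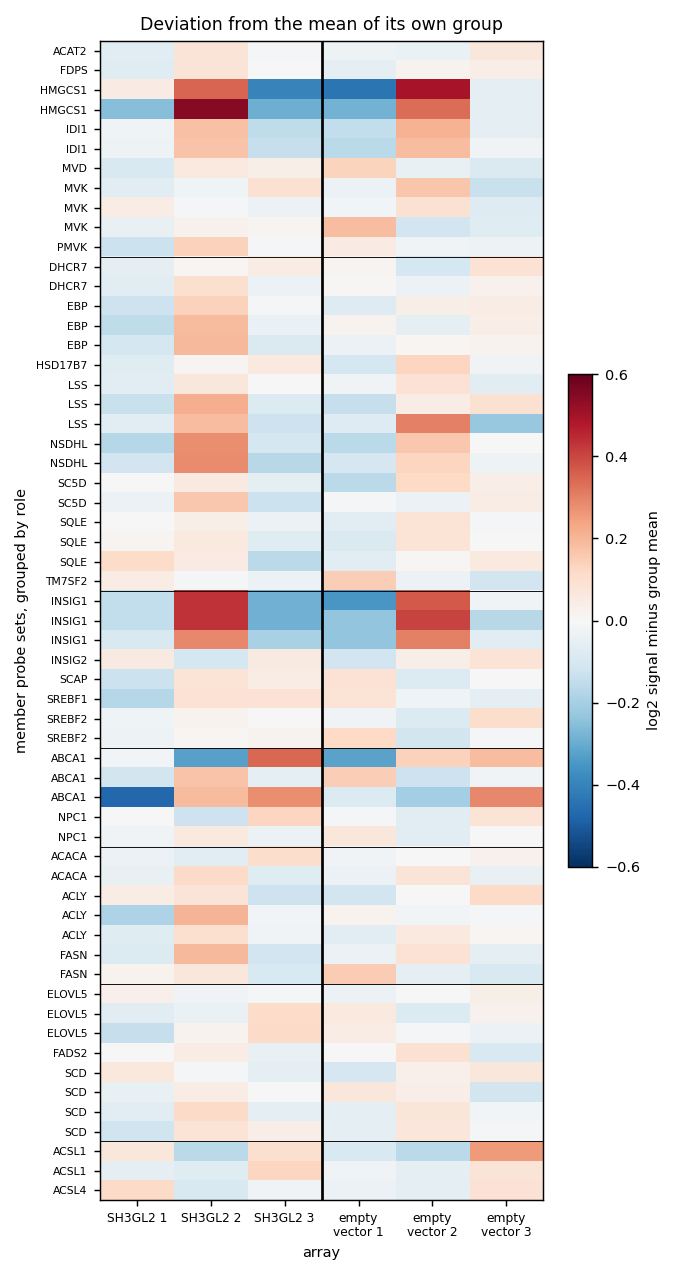
Deviation of each member probe set (rows, grouped by role) from the mean of its own group on each array (columns, SH3GL2 left of empty vector), in log2 units. Array 2 of both groups is red for HMGCS1, IDI1, NSDHL and INSIG1, and the group difference itself is removed from this plot.

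Fatty acid synthesis genes showed no called change, with none of 7 probe sets past the threshold. FASN, the fatty acid synthase, read 8.86, 9.14 and 8.83 in SH3GL2 arrays, against 8.82, 8.94 and 8.80 in empty vector arrays, a fold change of 0.09 (95% interval -0.10 to 0.28). ACACA, the acetyl-CoA carboxylase that makes malonyl-CoA, read 10.33, 10.30 and 10.47 in SH3GL2 arrays, against 10.16, 10.18 and 10.21 in empty vector arrays. Its groups were apart on both probe sets, with like fold changes of 0.18, yet neither passed (adjusted p = 0.149 and 0.336 from limma). ACLY, which supplies cytosolic acetyl-CoA, had -0.07 to -0.03 on its 3 probe sets.

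None of 8 probe sets for desaturation and elongation passed. SCD, the stearoyl-CoA desaturase, was among the brightest members, with 12.11, 12.04 and 11.99 in SH3GL2 arrays, against 11.93, 12.06 and 12.10 in empty vector arrays. The fold change there was 0.02 (95% interval -0.11 to 0.14), and its other probe sets had 0.07 to 0.19. The elongase ELOVL5 had -0.05 and the desaturase FADS2 0.01 on their brightest probe sets. The 3 probe sets shared by FADS1 and MIR1908 had 0.04 to 0.09, and the 2 shared by CYP51A1 and LRRD1 had -0.27 and -0.15, and none of these 5 passed. Of the acyl-CoA synthetases, which activate fatty acids, ACSL4 read 7.45, 7.24 and 7.31 in SH3GL2 arrays, against 7.61, 7.59 and 7.73 in empty vector arrays. These values did not overlap, but the fold change of -0.31 missed the threshold (adjusted p = 0.0730 from limma), and ACSL1 had -0.11 and 0.04.

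The sterol transporters did not pass. ABCA1, the exporter that loads cholesterol onto apolipoproteins, had fold changes of -0.52, -0.19 and 0.09 on its 3 probe sets. The groups did not overlap on the first of these (adjusted p = 0.151), but no ABCA1 mean reached the 95th percentile of the reference. NPC1, the lysosomal cholesterol transporter, had -0.09 on a bright probe set with 10.21, 10.09 and 10.34 in SH3GL2 arrays, against 10.29, 10.23 and 10.38 in empty vector arrays.

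The related genes outside the members were taken from a list of 68, of which 56 had a probe set of their own. On the brightest probe set 3 were higher, 1 was lower and 52 did not pass, and their median log2 fold change was 0.04. Over all genes 2.54% were higher and 2.36% were lower. ABCG1, an LXR target that exports sterols, was higher on both of its probe sets. The brighter read 8.92, 8.57 and 8.88 in SH3GL2 arrays, against 8.07, 7.59 and 8.21 in empty vector arrays, which is 0.83 higher on the log2 scale (adjusted p = 0.00399 in limma, standard error 0.14). The other had 0.59 (adjusted p = 0.00486), and both calls held without each array in turn (adjusted p = 0.00130 to 0.0385). Both were lost with signals floored at the reference median (adjusted p = 0.173 and 0.113 from limma) and in an analysis of variance (0.273 and 0.2). RXRA, the partner receptor of LXR, read 9.88, 10.11 and 10.02 in SH3GL2 arrays, against 9.58, 9.46 and 9.71 in empty vector arrays. Its fold change was 0.42 (adjusted p = 0.00916), and the call was lost without SH3GL2 replicate 3 (0.0544) or empty vector replicate 2 (0.0577). Its dimmer probe set had 0.24 (adjusted p = 0.198).

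Other LXR genes of the list did not pass. Nor did the sterol exporter ABCA1, counted with the members, which had -0.52, -0.19 and 0.09. Its means lay under the 95th percentile of the reference. NR1H3, which encodes LXR alpha, and LPCAT3, a phospholipid-remodelling enzyme, had 0.29 (adjusted p = 0.170) and 0.21 (adjusted p = 0.235) on their brightest probe sets, and MYLIP, which marks lipoprotein receptors for degradation, had 0.00. FABP5, a fatty acid carrier, was higher by 0.21 (adjusted p = 0.0359) with 12.30, 12.38 and 12.29 in SH3GL2 arrays, against 12.06, 12.18 and 12.11 in empty vector arrays. LPIN1, a phosphatidate phosphatase and SREBP target, was lower by 0.25, with 10.91, 10.93 and 10.96 in SH3GL2 arrays, against 11.14, 11.24 and 11.18 in empty vector arrays (log2 fold change -0.25, adjusted p = 0.0160). Its other probe sets had -0.20 (adjusted p = 0.118) and, under the 95th percentile of the reference, -0.17 (adjusted p = 0.546). The FABP5 call was lost without any 1 array (adjusted p = 0.0564 to 0.130), and that of LPIN1 without SH3GL2 replicate 3 (0.0633), empty vector replicate 2 (0.107) or empty vector replicate 3 (0.0523). None of the listed 7 genes of SREBP processing, 10 of sterol handling, 5 of the isoprenoid branch and 10 of fatty acid oxidation passed limma on its brightest probe set. The lists are not complete. Of oxidation genes outside them, ACAA2 (0.29, adjusted p = 0.0417 from limma) and ACOX2 (0.65, adjusted p = 0.0186) were higher. The ACOX2 means lay under the 95th percentile of the reference, and ACAA1 and ACADS did not pass.

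**Figure D4:**
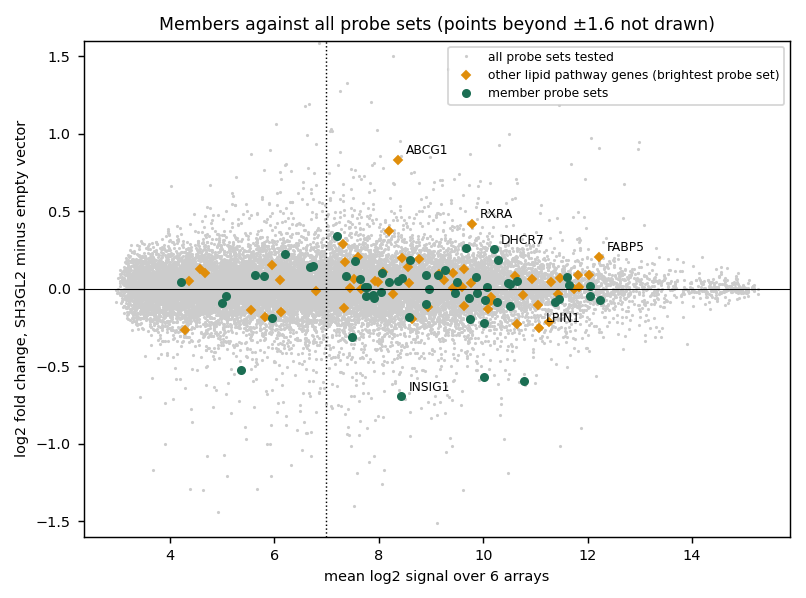
Log2 fold change (y axis, SH3GL2 minus empty vector) against the mean log2 signal over 6 arrays (x axis) for all probe sets tested (grey), member probe sets (green) and the brightest probe set of other lipid pathway genes (orange), with the reference's 95th percentile, 6.99, dotted. Called genes are named, with INSIG1 the lowest member shown at -0.69 and ABCG1 the highest of the other lipid genes at 0.83.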

How the data were processed

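RNA of both SUM-159 lines was measured on Affymetrix U133A 2.0 arrays (3 for each line), which the authors scanned and analysed under GCOS. MAS5 is named, with no version, in the processing notes. The deposited table holds log2 values. Whether they are MAS5 signals, and how arrays were scaled (medians 6.97 to 7.02), is not given in the sources used here. Scaling that equalizes arrays would hide a shift shared by most genes.

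Values were used as deposited. Of 22277 probe sets 62 controls were left out. By the platform annotation 19064 of the others had 1 symbol, 1043 had several and 2108 had none. All 30 measured member symbols matched RefSeq. The comparison used limma 3.58.1 under R 4.3.3, with moderated variances that follow an intensity trend, two-sided p-values and Benjamini-Hochberg adjustment. The methods name no test for the arrays. With 3 arrays per group an exact permutation test cannot go below p = 0.1, so none was used. Errors are SD over arrays. The number of arrays limits the precision.

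Members and lists were chosen with earlier results of these data known, so counts over them are descriptions. The rule for named genes gives values on every array for called member probe sets and for SREBF1, SREBF2, SCAP, INSIG1, FASN and SCD, and names the called other pathway genes. Further members are shown as examples of their group, chosen after their values were seen. Fits were tested on simulated data drawn from the fitted variance model with independent arrays. Such data hold no effect shared by arrays, so they cannot show how the fits handle such an effect. Alternatives were other scalings, an offset of 16, a floor, a filter on low signals, other variance models, an analysis of variance, a threshold of 0.01, blocking on the replicate number, and omitting each array in turn. Plots were made in matplotlib 3.10.9 under Python 3.11.15.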

Additional observations from a re-analysis of the deposited data

How the results depend on the processing

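Quantile normalization and a robust prior gave 2 higher and 1 lower member probe sets and 3 higher and 1 lower other pathway genes, but with the robust prior TM7SF2 took the place of 1 DHCR7 probe set. Higher member probe sets numbered 0 with arrays centred on their medians and 1 with an offset of 16. A floor at the reference median left 0 higher and 0 lower members and 0 higher other genes. Among probe sets above the 95th percentile of the reference 2 members were lower, ACSL4 being the added one, and 3 were higher, TM7SF2 being the added one. This filter left 49 member probe sets. Signals averaged over that limit at 50.2% of all probe sets, and calls with the filter numbered 893, members included, against 926 without it. Without an intensity trend 0 members were higher, 0 were lower and 0 other genes were lower, as at an adjusted p under 0.01. In the analysis of variance of each probe set 0 members and 0 other genes passed in either direction, with 77 calls over all probe sets against 926 in the intensity trend fit of limma, 295 with the floor, 597 without the trend and 447 at 0.01. At an unadjusted p under 0.05 in limma 5 member probe sets were higher (8.47%) and 7 lower (11.9%), against 8.24% and 7.62% of all probe sets. All 3 INSIG1 probe sets, which are not independent, were among the 7 lower. The cause of the lost calls in these settings was not tested.

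Leaving out each array in turn gave 0 to 1 higher and 0 to 3 lower member probe sets, 1 to 4 higher and 0 to 1 lower other genes, and 480 to 801 calls over all probe sets. The median log2 fold change of the member genes was -0.02 to 0.04. Fold changes near 0 changed sign: SCD was -0.015 without SH3GL2 replicate 1 and -0.0333 without empty vector replicate 1 (highest 0.0517), SREBF1 was 0.0833 and 0.0383 without the same arrays (lowest -0.0467), and FASN was -0.0083 without SH3GL2 replicate 2. With a replicate block 4 member probe sets were lower, all 3 of INSIG1 (adjusted p = 2.96e-04 to 9.64e-04) and 1 of ABCA1 (0.0474), and 2 were higher, 1 of DHCR7 and TM7SF2, with 1079 calls over all probe sets. The main fit did not take the numbers as pairs, since the labels do not say that a number marks a shared batch. Residual correlations across groups were -0.01, 0.13 and 0.15 between same-numbered arrays. Between arrays of different numbers they were -0.155 to 0.02. The residuals of each group sum to 0 by construction, so these values are partly fixed by those of same-numbered arrays. Of 6 arrays, 4 correlated best with their own number. Whether a number marks a pair was not tested.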
